A study of Homo sapiens with 9 samples.

Results

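The 10 keratin genes KRT7, KRT8, KRT9, KRT10, KRT15, KRT16, KRT17, KRT18, KRT19 and KRT80 were followed through 9 RNA-seq libraries of 293T cells. They were found by matching the gene identifiers of the count table, without their version, to GENCODE symbols, and all 10 were present among the 57163 genes of the table. The genes were chosen by measured values, with their counts in the EGR1 library known, those of KRT17 and KRT9 among them. Every comparison of a member between the EGR1 library and the control library is therefore a description and carries no test. The study dealt with transcription factors (TFs) with preferential binding at promoters of conserved lncRNAs (CLB_TFs). It asked whether these TFs affect the expression of conserved lncRNAs more strongly. Protein-coding genes such as the keratins were counted in the same libraries. Each of 8 TFs was expressed in 293T cells, a human embryonic kidney line, and 1 library was made per condition from RNA taken 48 h after transfection. The CLB_TF class held EGR1, NRF1, ZBTB7A and E2F4, while HOXA11, NKX2-8, RORA and TFCP2 served as control TFs. The plasmids carried the TF under the EF1A promoter together with EGFP. The remaining library, labelled blank, came from cells given an empty control plasmid according to the methods, and is called the control library here. All 9 libraries share the cell line and the transfection, and no condition has a second library.

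Keratins are the intermediate filament proteins of epithelial cells. A filament is built from heterodimers of an acidic type I and a basic or neutral type II keratin, and the type I genes other than KRT18 lie together on chromosome 17 while KRT18 and the type II genes lie on chromosome 12. KRT8 and KRT18 are the partners of simple epithelia such as kidney tubule, liver and gut. KRT7 (type II) and KRT19 (type I) belong to ducts and other simple epithelia. KRT10 and KRT9 are type I keratins of the differentiating epidermis, KRT9 that of palms and soles. KRT15 marks basal epidermal cells, and KRT16 and KRT17 are induced in wounded or inflamed skin and are found in hair follicles and nails. KRT80 is a type II keratin with a broad epithelial distribution.

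The library totals ranged from 14177970 to 18915400 counts, and levels are given as CPM, counts relative to the library total, after TMM scaling, whose factors ranged from 0.972 to 1.08. Each expressed TF had its highest count in its own library. EGR1 itself reached 101744 counts there, while the control library had 344 and the remaining TF libraries 357 to 436. The control library held 9812 counts of TFCP2, where the TF libraries other than that of TFCP2 held 653 to 703. For the keratins above 1 CPM, the EGR1 values against the mean of the control TF libraries are therefore given beside those against the control library. All of NEFL, NEFM, INA, VIM and LIN28B, genes noted in 293T and its parent line, were above 1 CPM, with a summed level of 1644 to 2189 CPM. The keratinocyte markers KRT5, KRT14, KRT1, TP63 and IVL summed to 0 to 0.999 CPM, none reached 1 CPM, and KRT1 and IVL had no count in any library. Fibroblast markers summed to 26.9 to 42.7 CPM (2 of 5 reached 1 CPM), leukocyte markers to 2.12 to 4.91 CPM (1 of 5), and hepatocyte markers to 0.0544 to 1.31 CPM (0 of 4) with TTR at 0 throughout. The keratinocyte, fibroblast and hepatocyte sums were highest in the EGR1 library. KRT14 gave 15 of the 16 keratinocyte marker counts there. Of the fibroblast markers COL1A1 had 621 counts against 484 in the control library, and COL1A2 had 4 against 0. COL3A1 (48 against 76), LUM (11 against 17) and DCN (0 against 2) had fewer. The part of these markers in the keratin levels was not tested. In bulk RNA, fewer cells making a transcript and less transcript per cell cannot be told apart.

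The sequences before the start of KRT9 and KRT10 show a pair of epidermal type I keratin promoters, 1 of a gene that was counted almost only in the EGR1 library and 1 of a gene counted at a similar level in all 9. They are the 250 bases upstream of the RefSeq start in GRCh38.p14, on the strand of the gene. KRT9 lies at 17:41572060-41572309 (minus strand) and KRT10 at 17:40822615-40822864 (minus strand). Capitals mark the TATAA letters, and in KRT9 also the reverse complement of GGGCGG, the letters of an SP1 box.
KRT9: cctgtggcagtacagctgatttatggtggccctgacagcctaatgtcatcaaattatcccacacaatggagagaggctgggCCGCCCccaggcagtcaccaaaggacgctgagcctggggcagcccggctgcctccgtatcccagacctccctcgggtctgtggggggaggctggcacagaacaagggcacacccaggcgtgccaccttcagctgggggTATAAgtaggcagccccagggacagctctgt
KRT10: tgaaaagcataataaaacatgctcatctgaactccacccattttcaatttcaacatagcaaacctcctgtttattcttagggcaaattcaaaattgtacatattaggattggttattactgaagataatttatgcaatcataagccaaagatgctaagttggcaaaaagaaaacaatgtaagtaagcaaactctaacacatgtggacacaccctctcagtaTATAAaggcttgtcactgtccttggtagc
Of the 10 genes, 3 had an entry in the RefSeq promoter table (KRT8, KRT9 and KRT10). The entries for KRT7, KRT15, KRT16, KRT17, KRT18, KRT19 and KRT80 were not found there. TATAA on the gene's strand began 31 bases before the start of KRT9 and 29 bases before that of KRT10, and 13.6% of 35116 promoters of this length held it. GGGCGG, searched on both strands, was found once in KRT9, 169 bases before the start, and in 42.6% of all promoters. The EGR1 site letters GCGTGGGCG and GCGGGGGCG (0.72% and 4.72% of promoters, both strands) and the AP-1 letters TGANTCA (6.57%, both strands) were in none of the 3. KRT8, with its window at 12:52926470-52926719 (minus strand), held none of the letters searched. Only 1 start was searched for each gene, so any other start of KRT8 was not covered. The GC content was 62.0% in the KRT9 window, 50.4% in that of KRT8 and 34.8% in that of KRT10.

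Of the 10 keratins, 5 reached 1 CPM in at least 1 library, namely KRT8, KRT18, KRT10, KRT17 and KRT9. KRT9 reached it only in the EGR1 library, where it is high, so a difference there was built into the filter. On the TPM scale, which corrects for gene length, the levels of the control library ran from KRT18 (88.5 TPM) over KRT10 (25.0 TPM) and KRT8 (15.0 TPM) to KRT17 (0.445 TPM) and KRT9 (0). In the EGR1 library the same order was KRT18 (100.5 TPM), KRT17 (34.1 TPM), KRT8 (27.8 TPM), KRT10 (21.6 TPM) and KRT9 (12.6 TPM). On this scale KRT17 thus moved from the fourth of these genes to the second. The lengths used are those of the count table, 6881 bases for KRT8 and 2144 to 3218 bases for the other 4 genes. The longest coding transcript of KRT8 holds 2437 bases, so the place of KRT8, and of KRT17 relative to it, depends on the length used. The order was not computed with transcript lengths.

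KRT17 (ENSG00000128422, GRCh37 17:39775689-39781094, minus strand) differed most in fold among the 4 keratins counted in all 9 libraries, its highest level being 74.1 times its lowest. It had 6 counts in the control library (0.326 CPM), 7 in NRF1 (0.441 CPM), 12 in E2F4 (0.672 CPM), 387 in EGR1 (24.2 CPM) and 10 in ZBTB7A (0.691 CPM). Among the control TFs it had 37 counts in HOXA11 (2.20 CPM), 18 in RORA (1.09 CPM), 8 in TFCP2 (0.458 CPM) and 28 in NKX2-8 (1.86 CPM). The EGR1 library was high, HOXA11, NKX2-8 and RORA came next, and the other 5 libraries held 6 to 12 counts. The EGR1 level was 74.1 times that of the control library, with a 95% exact conditional interval of 33.7 to 203. Such intervals cover counting error only, since 1 library stood for each condition.

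The order of the KRT17 levels was firm only at its top. The EGR1 level was 11.0 times (7.83 to 15.8) that of HOXA11, the next library. No other pair of neighbours in the order differed beyond counting error, from HOXA11 over NKX2-8 at 1.18 times (0.705 to 2.01) to NRF1 over the control library at 1.35 times (0.389 to 4.87). Against the control library, itself the lowest, the ratios were 6.74 (2.82 to 19.6) in HOXA11, 5.70 (2.31 to 16.8) in NKX2-8 and 3.33 (1.27 to 10.3) in RORA. In E2F4 and ZBTB7A the ratios were 2.06 (0.715 to 6.69) and 2.12 (0.698 to 7.09), at levels below 1 CPM. With the control TF mean as the reference, the log2 fold change of KRT17 in the EGR1 library was 4.0 in place of 5.76. Against that reference KRT17 was no longer at least 2-fold higher in HOXA11, RORA or NKX2-8, and it fell at least 2-fold in NRF1, E2F4, ZBTB7A and TFCP2. Against the other 8 libraries pooled, the EGR1 level was 25.4 times as high (20.7 to 31.3).

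KRT9 (ENSG00000171403, GRCh37 17:39722093-39728310, minus strand) was counted in 2 libraries. It had 129 counts in EGR1 (8.06 CPM, 95% Poisson interval 6.73 to 9.57), 1 count in TFCP2 (0.0572 CPM) and 0 in the control, NRF1, E2F4, ZBTB7A, HOXA11, RORA and NKX2-8 libraries. The EGR1 level was above those of the other 8 libraries. Of the 15445 genes with 1 CPM in any library, 7.36% were highest in EGR1. KRT9 was chosen with its EGR1 count known, so nothing is read from this. With the control library set to a floor of 3 counts, the EGR1 level was 49.4-fold higher, without counting error. The lower 95% limit of the ratio to the control library, with counting error, was 39.6. The log2 fold change was 6.08 against the control library and 5.91 against the control TF mean, values that depend on the prior count. Against the single count of TFCP2 the ratio was 141, with a counting interval of 24.8 to 5600. A search made after the values were seen asked which genes had at least 100 counts in 1 library and at most 1 in each of the other 8. It found 2 genes, KRT9 and the lncRNA CATG00000057961.1, both in the EGR1 library, and 0 in each of the other libraries. KRT9 was bound to be found, since its counts were known when the cut-offs were set. With at least 50 counts in place of 100, 3 genes were found in EGR1.

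KRT8 (ENSG00000170421, GRCh37 12:53290971-53343738, minus strand) had 548 counts in the control library (29.8 CPM), 404 in NRF1 (25.5 CPM), 505 in E2F4 (28.3 CPM), 855 in EGR1 (53.4 CPM) and 387 in ZBTB7A (26.7 CPM). Among the control TFs it had 696 in HOXA11 (41.4 CPM), 566 in RORA (34.2 CPM), 600 in TFCP2 (34.3 CPM) and 515 in NKX2-8 (34.2 CPM). EGR1 was highest, HOXA11 second, and NRF1, ZBTB7A and E2F4 lowest. The ratio to the control library was 1.79 (1.61 to 2.0) in EGR1, under the 2-fold line and so not called, 1.39 (1.24 to 1.56) in HOXA11 and 0.855 (0.750 to 0.974) in NRF1. In the order of the levels, EGR1 over HOXA11 at 1.29 times (1.17 to 1.43), HOXA11 over TFCP2 at 1.20 times (1.08 to 1.35) and NKX2-8 over the control library at 1.15 times (1.02 to 1.30) differed beyond counting error. The other 5 pairs of neighbours did not. With the control TF mean as the reference the log2 fold change in EGR1 was 0.57 in place of 0.84.

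KRT18 (ENSG00000111057, GRCh37 12:53342655-53346685, plus strand), the type I partner of KRT8, varied less. Its counts were 1516 in the control library, 1174 to 1446 in the CLB_TF libraries and 1266 to 1498 in the control TF libraries. The levels ran from 73.4 CPM in E2F4 to 90.3 CPM in EGR1, with a median of 82.0 CPM and an SD of 5.81 CPM over the 9 libraries. The highest level was 1.23 times the lowest, against 2.10 times for KRT8. The ratio to the control library was 1.10 (1.02 to 1.18) in EGR1 and 0.891 (0.827 to 0.960) in E2F4, and the other libraries lay between them. The log2 fold change in EGR1 was 0.13 against the control library and 0.11 against the control TF mean. Only 1 pair of neighbours differed, NKX2-8 over the control library at 1.08 times (1.0 to 1.16).

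**Figure D1:**
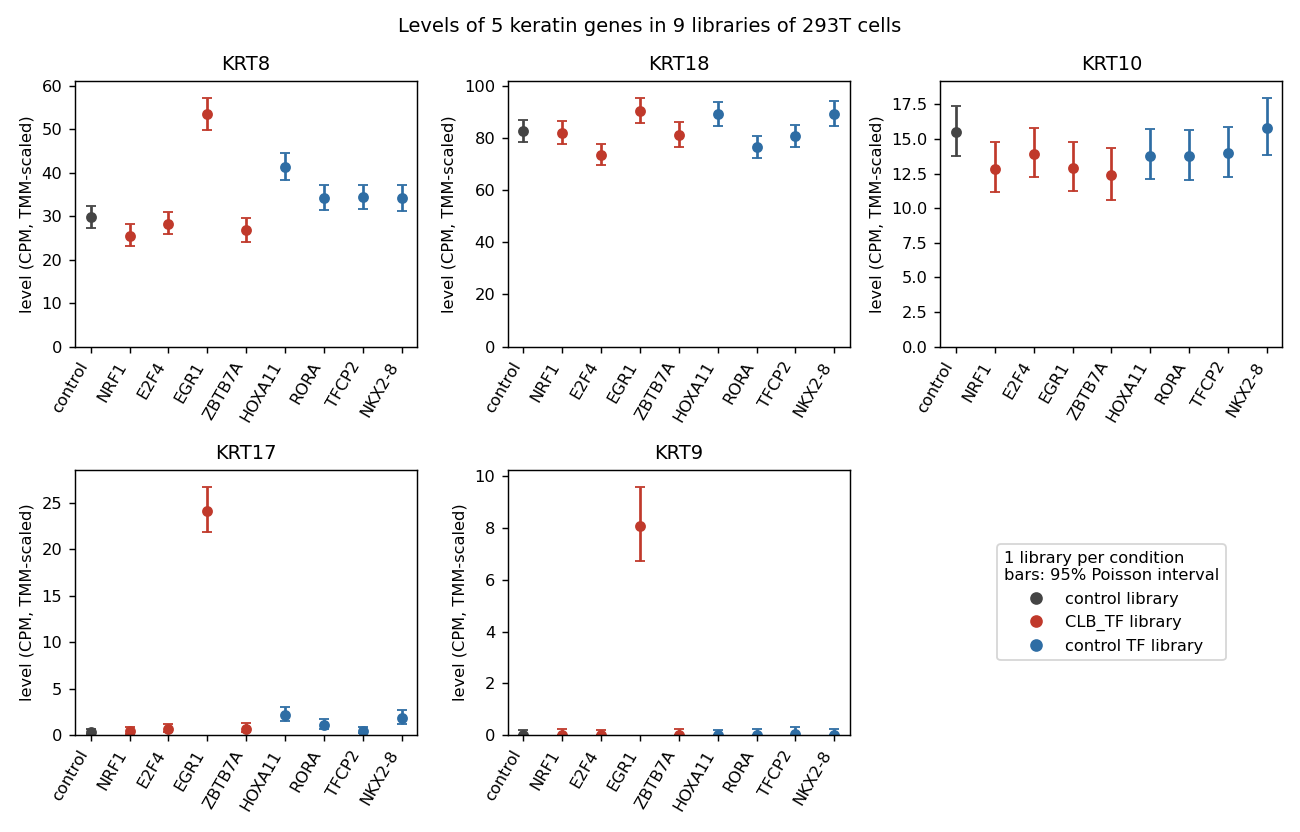
Level in CPM (y axis, linear from 0) of KRT8, KRT18, KRT10, KRT17 and KRT9 in each of the 9 libraries (x axis). Points are single libraries and bars are 95% Poisson intervals of the count. KRT17 at 24.2 CPM and KRT9 at 8.06 CPM stand apart in the EGR1 library, KRT8 at 53.4 CPM is highest there, and KRT18 and KRT10 lie in narrow bands.

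The partners did not move in step, and the share of KRT8 in the counts of both genes was computed after the levels had been seen. It was 26.6% in the control library (95% exact binomial interval 24.7 to 28.5) and 37.2% in EGR1 (35.2 to 39.2), the highest value. HOXA11 followed at 31.7% (29.8 to 33.7), RORA at 30.9% (28.8 to 33.1), TFCP2 at 29.9% (27.9 to 31.9), E2F4 at 27.8% (25.7 to 29.9) and NKX2-8 at 27.7% (25.7 to 29.8). ZBTB7A was at 24.8% (22.7 to 27.0) and NRF1 lowest at 23.7% (21.7 to 25.8). The interval of EGR1 lay above those of the other 8 libraries. KRT8 and KRT18 overlap at their starts on opposite strands. The kit was directional, but the sources used here do not state whether strand was used in counting. Reads from the overlap may not be assigned to 1 gene. When the 100-base windows of a gene's longest coding transcript were looked for in all annotated transcripts of other genes, on either strand, 15.2% of those of KRT18 were found in KRT8 transcripts. Of the windows of the longest KRT8 transcript none was found elsewhere.

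**Figure D2:**
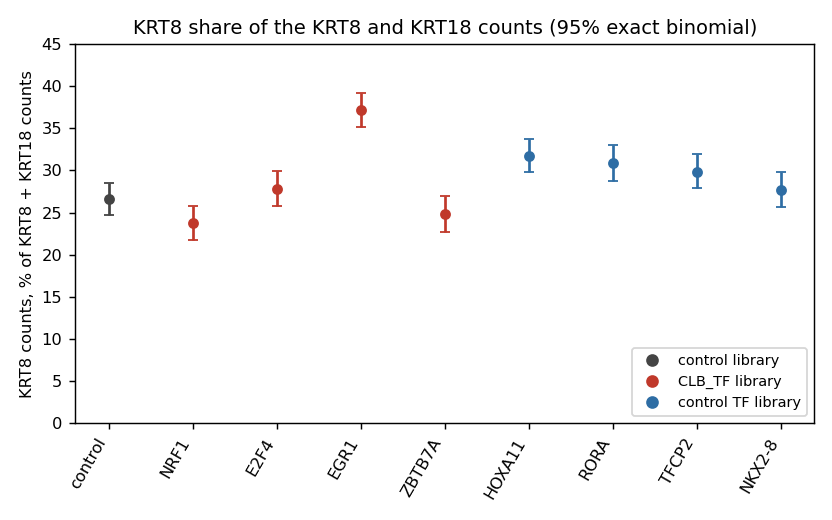
Share of KRT8 in the sum of the KRT8 and KRT18 counts (y axis, percent, from 0) in each library (x axis). Points are single libraries and bars 95% exact binomial intervals. The EGR1 library lies at 37.2%, above the range of 23.7% to 31.7% of the other 8.

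KRT10 (ENSG00000186395, GRCh37 17:38974369-38978847, minus strand) had 285 counts in the control library (15.5 CPM), 179 to 249 in the CLB_TF libraries (12.4 to 13.9 CPM) and 228 to 244 in the control TF libraries (13.8 to 15.8 CPM). Its level was highest in NKX2-8 and lowest in ZBTB7A, by 1.28 times, and no pair of neighbours in the order differed beyond counting error. The ratios to the control library ran from 0.798 (0.658 to 0.966) in ZBTB7A to 1.02 in NKX2-8, with 0.834 (0.694 to 1.0) in EGR1. The log2 fold change in EGR1 was -0.26 against the control library and -0.15 against the control TF mean. KRT10 was the only one of the 5 genes above 1 CPM that was not highest in the EGR1 library. It overlaps KRT10-AS1 on the opposite strand, which had 156 to 257 counts, and reads of the 2 genes may not be told apart if strand was not used.

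The other 5 keratins stayed at 0 to 6 counts. KRT16, which with KRT17 is induced in wounded skin, had 6 counts in EGR1, 1 each in NRF1 and HOXA11 and 0 elsewhere. KRT19 had 6 counts in NRF1, 3 in NKX2-8, 2 in RORA, 1 in E2F4 and 0 in the other 5 libraries, EGR1 among them. KRT7 had 5 counts in NRF1, 2 each in ZBTB7A and RORA, 1 in EGR1 and 0 in the rest. KRT80 had 3 counts in EGR1, 2 in NKX2-8 and 1 in RORA, and KRT15 a single count, in NRF1. At these depths differences between libraries were not detectable except as bounds. KRT16 in EGR1 was 2.30-fold, KRT19 in NRF1 2.32-fold and KRT7 in NRF1 1.93-fold higher than the floor of 3 counts in the control library. With the counting error of these 5 or 6 counts included, the lower 95% limits of the ratios were 1.35, 1.37 and 1.06. KRT16 shares 7.12% of its 100-base windows with KRT14 and KRT16 pseudogenes, so its few counts are uncertain, and KRT7 overlaps KRT86 on the same strand.

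Counted by a change of at least 2-fold against the control library with 1 CPM in the higher library, 2 of the 10 genes rose in the EGR1 library (KRT17 and KRT9) and 0 fell. Of 15445 genes with 1 CPM in any library, 2.54% rose and 0.324% fell there, and since the members were chosen with that contrast known nothing is read from the count. In HOXA11, RORA and NKX2-8, 1 keratin rose (KRT17), where 1.27%, 0.641% and 2.87% of all genes rose. In NRF1, E2F4, ZBTB7A and TFCP2, 0 rose, where 8.41%, 3.63%, 1.97% and 0.719% of all genes rose. No keratin fell in any library, where 0.337% (NRF1), 0.401% (E2F4), 0.518% (ZBTB7A), 0.447% (HOXA11), 0.524% (RORA), 0.278% (TFCP2) and 1.09% (NKX2-8) of all genes fell. All these contrasts share 1 control library. The shares are of the 15445 genes with 1 CPM in any library, and only the 5 members above 1 CPM could be called. With so few members nothing is read from 0 or 1 call. Of the 5 genes above 1 CPM, 4 had their highest level in the EGR1 library, against 7.36% of all genes, a count that rests on the values known when the list was made.

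**Figure D3:**
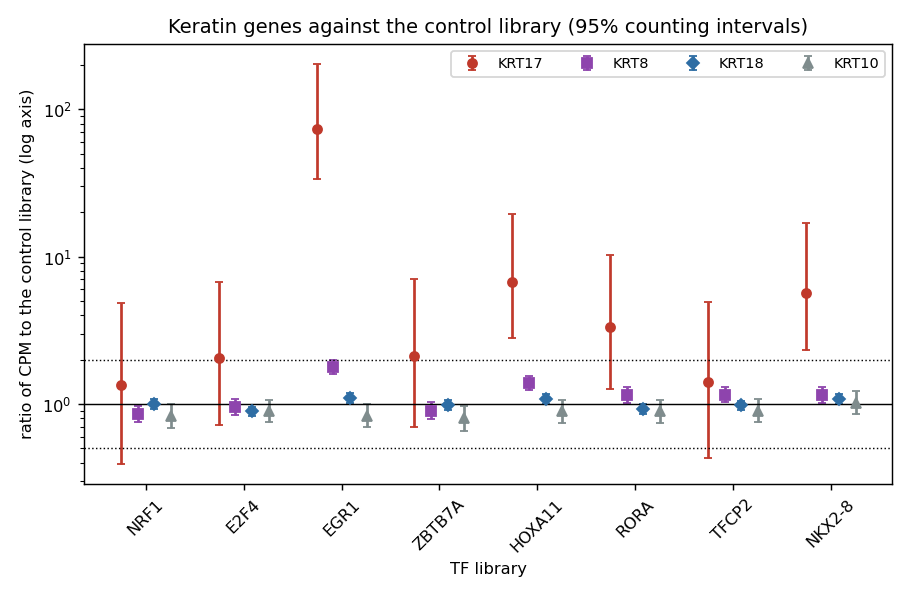
Ratio of the CPM of KRT17, KRT8, KRT18 and KRT10 in each TF library to the control library (y axis, log scale), with 95% exact conditional intervals that cover counting error only. Dotted lines mark a 2-fold change either way. KRT17 lies at 74.1 in EGR1 and at 3.33 to 6.74 in RORA, NKX2-8 and HOXA11, while KRT18 and KRT10 stay between 0.798 and 1.10.

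Between the classes, 4 CLB_TF against 4 control TF libraries, edgeR's quasi-likelihood test was used. The TFs of each class took the place of replicates, so the spread is that between TFs. The CLB_TF class includes the EGR1 library, whose counts of the members were known when the genes were chosen. The class values that include EGR1 are therefore descriptions for every member. KRT8, KRT10, KRT17 and KRT18 passed the filter on low counts. None of the 4 was called at an adjusted p of 0.05, where 0.04% of the 15012 genes tested were, and 0 had an unadjusted p under 0.05. DESeq2 on the same libraries gave an adjusted p only for KRT8 (0.979), KRT10 (0.867) and KRT18 (0.981), and none of these was called. The other members had no adjusted p and could not be called, and KRT17 and KRT9 had no p at all. KRT17 had a log2 fold change of 2.23 (SE 1.10, edgeR adjusted p = 0.516), KRT8 of -0.10 (SE 0.20, edgeR adjusted p = 0.904), KRT10 of -0.13 (edgeR adjusted p = 0.677) and KRT18 of -0.03 (edgeR adjusted p = 0.936).

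The direction for KRT17 and the size for KRT8 turned on the EGR1 library. Without it the log2 fold change of KRT17 was -1.19 (SE 0.50, edgeR adjusted p = 0.425) and that of KRT8 was -0.41 (SE 0.09, unadjusted p = 0.00107, edgeR adjusted p = 0.104). KRT8 and KRT17 were the 2 members with an unadjusted p under 0.05. Again none of the 4 was called, while 0.393% of 15263 genes were. KRT8 levels in NRF1, E2F4 and ZBTB7A were 25.5 to 28.3 CPM and those of the 4 control TF libraries 34.2 to 41.4 CPM, so these libraries did not overlap. Of all genes, 6.4% had the former 3 libraries all below the latter 4. This split was looked at after the values had been seen, and of the 5 keratins above 1 CPM only KRT8 showed it.

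Along chromosome 17, the EGR1 counts were the highest of the 9 libraries over a run of consecutive keratin genes. Between KRT222 and KRT17 the annotation holds 62 protein-coding genes, keratins and keratin-associated proteins among them, of which 41 had no count in any library and 3 reached 1 CPM (KRT10, KRT9 and KRT17). Only KRT9 and KRT17 rose at least 2-fold in EGR1, and 0 fell. KRT9, KRT14, KRT16 and KRT17 follow each other, with their left ends at -53.6, -37.2, -9.66 and 0 kb relative to that of KRT17, and each had its highest count in EGR1. KRT9 and KRT17 were chosen with their EGR1 counts known, and KRT14 was named after its values were seen. KRT16 had only 6 counts in EGR1, so the run is a description. KRT14, the type I keratin of basal keratinocytes, had 15 counts in EGR1, 1 in HOXA11 and 0 elsewhere, and shares 6.05% of its 100-base windows with KRT16 and its pseudogenes. KRT17 shared 0.353% of its windows, with the pseudogene KRT17P3, and KRT9 none. KRT15 and KRT19, the next genes beyond KRT9, had 0 counts in EGR1, and KRT13 and KRT36 beyond them had 4 and 3, again the highest of the 9 libraries.

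On the other side of KRT17 the next genes were EIF1, 69.4 kb away, with a log2 fold change of -0.08 in EGR1, then GAST, HAP1 at 0.67 and JUP at -0.24. Of the 10 genes flanking the cluster, 6 reached 1 CPM and 0 rose or fell at least 2-fold in EGR1. In the cluster on chromosome 12, from KRT80 to KRT18, 2 of 27 genes reached 1 CPM (KRT8 and KRT18) and 5 had no count in any library. None of the 27 rose, nor did any of the 10 genes flanking it, of which 8 reached 1 CPM.

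**Figure D4:**
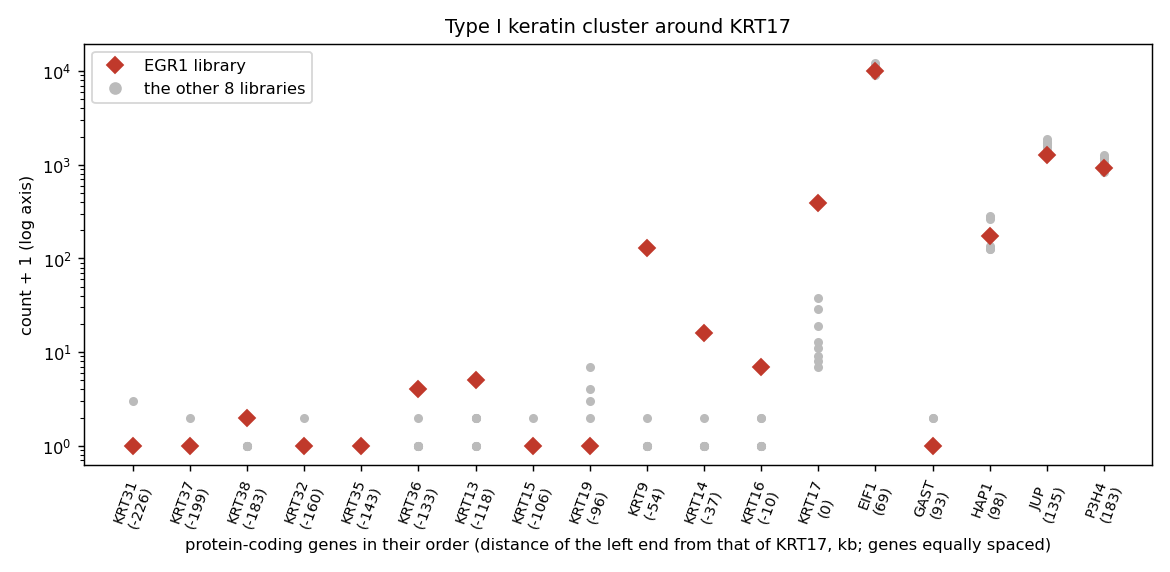
Counts plus 1 (y axis, log scale) of the protein-coding genes around KRT17 in their order on chromosome 17, equally spaced, with the distance of each left end from that of KRT17 in kb in the label. Diamonds are the EGR1 library and grey points the other 8. KRT9, KRT14, KRT16 and KRT17 lie above the other libraries, while EIF1, HAP1, JUP and P3H4 fall within or next to their range.

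The table held 55 keratin genes in all. Of these, 15 had no count in any library, 29 had under 10 counts in total among the 40 with a count, and 5 reached 1 CPM, all of them on the list. Of the 45 others, 30 had counts and none exceeded the 15 counts of KRT14 in EGR1. KRT222 had 65 counts over all libraries and KRT75 33. A count was seen for 27 keratin genes in NRF1 and 26 in EGR1, against 8 to 13 in the other 7 libraries. The same libraries held the most genes of any kind, 26166 in NRF1 and 26296 in EGR1 against 23344 to 24593, and whether the wider detection bears on the single keratin counts was not tested. The summed keratin level was 193 CPM in EGR1, 129 CPM in the control library and 117 to 147 CPM over the 8 libraries other than EGR1.

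**Figure D5:**
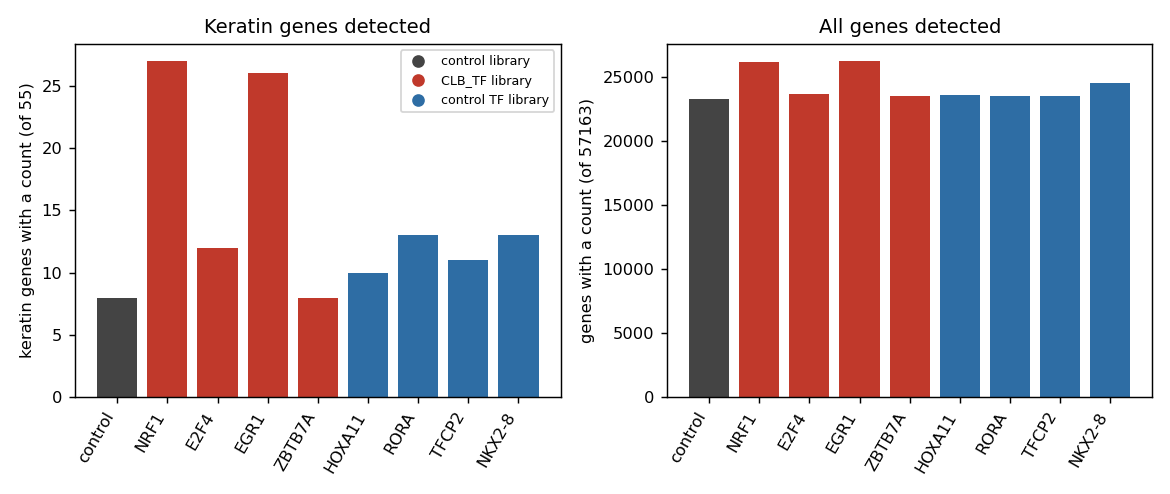
Number of keratin genes with a count out of 55 (left, y axis from 0) and of all genes with a count out of 57163 (right) in each of the 9 libraries. Bars are single libraries without error. NRF1 and EGR1 reach 27 and 26 keratin genes and also the 2 highest totals.

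Genes that work with keratins were read from lists chosen with earlier results of these data known. None of their members fell at least 2-fold in any TF library. The counts that rose in EGR1 stand beside 2.54% of all genes, and the medians beside an all-gene median log2 fold change of -0.02. The ratios of these genes are to the control library alone. Of 14 other intermediate filament genes with 1 CPM in a library, 2 rose in EGR1 and 0 to 2 rose in the single TF libraries. NEFH, the heavy neurofilament chain, had 85 counts in EGR1 and 1 in the control library (ratio 97.6, 17.1 to 3901), and 1 to 103 in the other TF libraries, with the highest count in NRF1. DES, the filament protein of muscle, had 28 against 11 (2.92, 1.41 to 6.51), with 7 to 36 in the other TF libraries and the highest level in HOXA11. VIM, the vimentin of mesenchymal cells and of most cultured lines, had a ratio of 0.879 (0.862 to 0.897). The median log2 fold change of the list in EGR1 was 0.16.

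Desmosomes anchor keratin filaments at cell junctions. Of 15 measured desmosome and cytolinker genes, 1 rose in EGR1, PPL (periplakin), with 32 counts against 5, a ratio of 7.35 (2.84 to 24.2). PPL rose in all 8 TF libraries, with 18 to 81 counts in the other 7, and the range of genes that rose per library was 1 to 3. The desmoplakin gene DSP, whose product binds keratins directly, had a ratio of 1.08 (1.04 to 1.13), and the list median was 0.00.

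Of 24 cornified envelope and keratinocyte differentiation genes, 4 were measured and 2 rose in EGR1. TCHH, the trichohyalin of the hair follicle's inner root sheath, had 44 counts against 6 (8.42, 3.58 to 24.2), with 4 to 148 in the other TF libraries and the highest count in NRF1. KLK7, a protease of the stratum corneum, had 23 against 3 (8.81, 2.66 to 45.8) and 1 to 7 in the other TF libraries. KLK7 reached 1 CPM only in EGR1, so it was measured only through the library where it is high, and a difference there was built into the filter. The median over these 4 genes, KLK7 among them, was 1.65, and 0 to 2 rose in each TF library. Of 8 measured simple epithelium markers, 1 rose in EGR1, CLDN4 (claudin 4, a tight junction protein), with 27 counts against 9 (3.45, 1.57 to 8.33). It rose in 7 of the 8 TF libraries, the list median was 0.33, and 0 to 3 members rose in each TF library.

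Of 11 measured transcription factors of the epidermis none rose in EGR1, 0 to 2 rose in each TF library, and the median in EGR1 was 0.05. GRHL1, a grainyhead factor, had 123 counts against 80 (1.77, 1.32 to 2.37), with 57 to 224 in the other TF libraries and the highest level in E2F4. KLF4 had 165 against 211 (0.898, 0.728 to 1.11), with 105 to 282 in the other TF libraries and the highest level also in E2F4. TP63, the master factor of stratified epithelia, had 0 counts in EGR1, 3 in NRF1, 1 in E2F4 and 0 elsewhere. Of 10 measured genes for keratin turnover, modification and chaperoning, none rose or fell in any TF library, and the median in EGR1 was -0.02.

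Among 13286 protein-coding genes with 1 CPM in a library, the 5 most like KRT17 by Pearson's r of log2 CPM over the 9 libraries were LCK, NMRK2, TUBB2A, GADD45B and JUNB. LCK, a kinase of T cells, had r = 0.970, with 75 counts in EGR1 and 0 in the control library, and r = 0.861 without the EGR1 library. NMRK2, a nicotinamide riboside kinase, had r = 0.965 and 0.819, with 255 counts against 11. TUBB2A had r = 0.957 and 0.822, with 732 counts against 524. GADD45B, a stress-induced gene, and JUNB, an AP-1 subunit, had r = 0.933 and 0.929, and r = 0.623 and 0.639 without the EGR1 library. Over the 8 libraries without EGR1 the closest were NPLOC4, DECR2, SLC35A4, S1PR3 and MIIP, led by NPLOC4 at r = 0.982, which was 0.237 over all 9. The libraries share their control, cell line and scaling, and the values are descriptions.

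The genes most like KRT18 were ZSCAN18 (r = 0.974), PLIN5, PIK3R5, MROH8 and ABCF3 (r = 0.904). Without the EGR1 library they were NOPCHAP1 (r = 0.978), ZSCAN18, CFD, SLCO4C1 and NUDT1, so ZSCAN18 stood in both lists. Between the keratins themselves, KRT8 and KRT17 had r = 0.886 over 9 libraries and 0.705 over the 8 without EGR1, and KRT8 and KRT18 had 0.633 and 0.474.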

How the data were processed

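RNA-seq of 9 libraries, 1 per condition, was analysed. Paired-end reads had been checked with FastQC (0.11.2), aligned to GRCh37 with STAR (2.6.0c) and counted per gene with featureCounts (1.6.3). The authors deposited 1 table of raw read counts of uniquely mapped reads, with gene lengths, and all of its columns were used. The RNA extraction is given as TRIzol in the labels and as miRNeasy in the methods. Groups were taken from the labels. Symbols were matched by Ensembl identifier to GENCODE v44lift37 (35408 of 36202 identifiers), and promoter sequences came from RefSeq. Scaling was by TMM, with edgeR 4.0.16 under R 4.3.3. A gene rose or fell when its CPM differed at least 2-fold with 1 CPM in the higher library. Fold changes used a prior count of 2, ratios had 95% exact conditional binomial intervals, and 0 was set to a floor of 3 counts for bounds. CLB_TF and control TF libraries were compared by the edgeR quasi-likelihood test with Benjamini-Hochberg adjustment, checked on simulated data, with DESeq2 (1.42.0) as an alternative. Named genes were all members, up to 4 called genes per list with the largest change in EGR1 (prior count 5), the 5 genes of highest r with KRT17 and with KRT18, and neighbours by position. VIM, DSP, GRHL1, KLF4, TP63 and KRT14 were named after their values were seen. The members and lists were chosen with earlier results of these data known. Alternatives changed the scaling, the minimum level, the prior count, the reference, the test and the libraries used.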

Additional observations from a re-analysis of the deposited data

Results flagged for a closer look

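A library was marked where its gap to the nearest of the 4 libraries of its class, divided by the range of the log2 CPM, passed Dixon's critical value at the 95% level. Chance marks about 1 in 20 such groups, 10 groups were tested, and the 4 libraries of a class are different TFs, not replicates. Among the CLB_TF libraries EGR1 stood apart for KRT17 (0.902), KRT9 (1.0) and KRT8 (0.860). The EGR1 values of all members were known when the genes were chosen, so these marks, that of KRT8 included, are descriptions and no test. Among the control TF libraries HOXA11 stood apart for KRT8 (0.973), with 696 counts against 515 to 600. NKX2-8 stood apart for KRT10 (0.898), at 15.8 CPM against 13.8 to 14. TFCP2 did so for KRT9 (1.0), with a single count against 0 in the other 3. With 3 libraries at 0 the quotient is at its maximum whatever the fourth holds, so both marks of KRT9 were fixed by the zeros and say nothing about its size.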

How the results depend on the processing

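Of 182 alternative values 160 stayed as reported and 22 moved. Most of the 160 are counts of 0 members that stayed at 0, so the total is no measure of stability. Most of the 182 values are counts of members, which have no sign. For KRT17 the direction did turn with the reference and between the classes. With the control TF mean as the reference, 1 member (KRT17) fell at least 2-fold in each of NRF1, E2F4, ZBTB7A and TFCP2. In HOXA11, RORA and NKX2-8 the count of members that rose dropped from 1 to 0 with that reference, at a minimum of 5 CPM, and in edgeR's exact test when the biological coefficient of variation was set to 0.2 or 0.4. At a minimum of 0.5 CPM it was 1 (KRT17) in E2F4 and in ZBTB7A. In EGR1 it was 2 under the 9 alternatives tried, which is no sign of stability, since these values chose the genes. The log2 fold changes in EGR1 that moved were those of KRT17 (4.0) and KRT8 (0.57) with the control TF mean, and of KRT9 (4.79) with a prior count of 5. Between the classes, 2 members (KRT9 and KRT17) were called when no filter on low counts was set, when 795 genes were called in all in place of 6. The EGR1 counts that chose both genes are part of this comparison, so nothing is read from these calls. DESeq2 called 161 genes, library totals in place of TMM 1, and leaving out 1 library at a time 0 to 60 genes and 0 members. Without EGR1 the class log2 fold change of KRT17 was -1.19 in place of 2.23. The count was 60 without EGR1, 21 without E2F4, 16 without ZBTB7A, 1 without NRF1 and 0 without any single control TF library. No paired analysis was possible because each condition had 1 library and no replicate number. With 1 library per condition, intervals hold counting error only, and genes under about 10 counts give bounds at best.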
